A study of Mus musculus with 10 samples.

Results

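The resting transcriptome described here is that of mouse bone marrow-derived dendritic cells (BMDCs) kept with the solvent DMSO alone. It rests on 3 RNA libraries, the vehicle replicates 1, 2 and 3, out of 10 libraries in the series, and was chosen by the vehicle label on RNA samples and by no measured value. The cells came from wild-type female C57BL/6 mice aged 8 to 10 weeks. Bone marrow was grown for 7 days with 20 ng/mL GM-CSF, the growth factor that drives myeloid progenitors towards dendritic cells in culture, and the non-adherent, immature cells harvested at day 6 received 0.04% DMSO for 24 h. No treatment comparison was made, and treated libraries entered only 1 alternative scaling in the closing section. Separate mice or cultures are not named for the replicates, and the spread between them may be technical.

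Dendritic cells take up proteins, cut them in acidic compartments and display the peptides to T cells on major histocompatibility complex (MHC) molecules. Class II molecules, assembled around the invariant chain, present peptides from ingested material, and class I molecules present peptides from the cell's own proteins. GM-CSF also supports granulocytes and macrophages. A culture grown with it alone is known to be a mixture, in which dendritic cells, macrophage-like cells and granulocytes at several stages can all contribute RNA.

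Levels are given as CPM, counts per 1000000 of the library's total after edgeR's TMM scaling, and errors are the SD over the 3 libraries (n = 3) throughout. Where 3 values are listed for a gene, they are those of replicates 1, 2 and 3 in that order. CPM is a share of the sequenced counts and is not corrected for transcript length, so ranks below are ranks by share of counts and do not order genes by number of transcripts. The libraries held 31413578, 28457863 and 28754835 counts. The table held 0 mitochondrially encoded genes, so ranks and shares cover only the genes listed in it. A floor of 3 counts corresponded to between 0.0958 and 0.106 CPM in a single library and to 0.0339 CPM over all 3, for counting error only. Of 24385 genes in the table, 7407 had no count in any of the 3 libraries, and 11488 (47.1% of the table) were at 1 CPM or more in all 3, the level called present here. Each count of present list members below is to be read beside this 47.1%. A further 9526 genes were under 0.1 CPM in all 3, the level called absent.

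Replicate 3 stood apart from the other libraries, and this touches most results on antigen presentation and granule genes. Between replicates 1 and 2 the log2 ratio of gene levels had an SD of 0.10 over 8945 genes at a mean of 10 CPM or more, with 4 genes differing 1.5-fold or more. Between replicates 1 and 3 the SD was 0.20 with 153 such genes, and between replicates 2 and 3 it was 0.17 with 100. Counting error alone would give an SD of about 0.06, so no 2 libraries were copies of each other. Values are therefore printed for each library for many genes, and the cause of the difference was not tested. Where only a mean ± SD is printed, replicate 3 may still depart from the others, as it does for Naaa and Il1rn. In bulk RNA, fewer cells of a type and less RNA per cell cannot be told apart.

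The libraries carried the defining genes of GM-CSF dendritic cells together with abundant granulocyte genes. Itgax, which encodes the dendritic cell integrin CD11c (mm10 chromosome 7, 128129526 to 128150657), stood at 614, 703 and 816 CPM, lowest in replicate 1 and highest in replicate 3. H2-Ab1, the beta chain of the class II molecule I-A (chromosome 17, 34263227 to 34269418), stood at 848, 1159.8 and 1537 CPM, and Cd74, the invariant chain that escorts class II molecules (chromosome 18), at 3192, 3722 and 4925 CPM. Both were highest in replicate 3 and lowest in replicate 1, by 1.81-fold and 1.54-fold.

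Ccl22, a chemokine that attracts CCR4-bearing T cells (chromosome 8, 94745684 to 94751388), was even across libraries at 2226, 2453 and 2164 CPM. S100a9, a subunit of the calcium-binding protein calprotectin of neutrophils and monocytes (chromosome 3, 90692630 to 90695721), stood at 9414, 8264 and 5651 CPM, with replicate 3 well below both others. Prg2, the major basic protein of eosinophil granules (chromosome 2, 84980461 to 84983632), stood at 953, 1219 and 1346 CPM, lowest in replicate 1. By mean CPM these genes ranked at 3 (S100a9), 10 (Cd74), 23 (Ccl22), 58 (H2-Ab1), 61 (Prg2) and 148 (Itgax) of the table. The defining genes of the labelled cell type were thus present in every library, beside a calprotectin gene within the first 10 ranks and an eosinophil granule gene within the first 100.

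**Figure D1:**
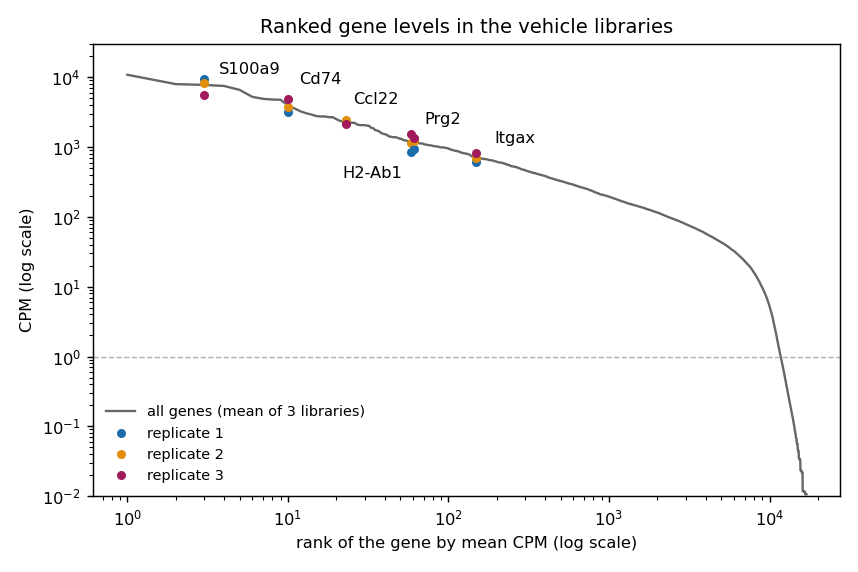
Mean CPM of every gene with a count (grey line, both axes on log scales) against its rank by mean CPM. Coloured points are the 3 vehicle libraries for Itgax, H2-Ab1, Cd74, Ccl22, S100a9 and Prg2, and the dashed line marks 1 CPM. S100a9 and Cd74 lie within the first 10 ranks, with replicate 3 lowest for S100a9 and highest for Cd74.

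Among the genes in the table, the most abundant RNAs came from lysosomal, calprotectin, iron-storage and cytoskeletal genes. Lyz2, the lysozyme of phagocytes, took the largest share, at 10100, 10415 and 12099 CPM, or 1.09% ± 0.11 of all counts. Psap, the precursor of the saposins that help to break down sphingolipids, followed at 7509.8, 7561 and 8887 CPM, then S100a9 and Actb, the cytoplasmic beta-actin, at 7553, 7681 and 7303 CPM. The ferritin light chain Ftl1 stood at 6646, 6634 and 6512 CPM and the ferritin heavy chain Fth1 at 4895, 5489 and 5355 CPM, both even across libraries. The first 10 ranks were completed by Tmsb4x, an actin-sequestering thymosin, S100a8, the partner of S100a9, the elongation factor Eef1a1 and Cd74.

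Ranks 11 to 30 mixed secreted myeloid proteins with genes of metabolism and the cytoskeleton. Chil3, a chitinase-like secreted protein of myeloid cells, stood at 4395, 3471 and 2872 CPM and was lowest in replicate 3. Thbs1, the matrix glycoprotein thrombospondin-1, stood at 3054 ± 369 CPM, and Mmp12, macrophage elastase, at 2330.2 ± 186 CPM. Cst3, the protease inhibitor cystatin C, stood at 1828, 2052 and 2329.9 CPM, and Lgals3, the lectin galectin-3, at 2102 ± 251 CPM. The cytoskeletal genes Lcp1, Flna, Myh9, Actg1 and Vim, the glycolytic genes Gapdh and Pkm, the elongation factor Eef2, the chaperone Hspa8 and the ribosomal protein gene Rpsa also lay in this range. Of the first 30 genes, 20 had their highest library below 1.25 times their lowest, as did 83 of the first 100.

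Counts were spread over many genes. The first 10 genes took 6.44% ± 0.0098 of counts, the first 100 took 20.1% ± 0.19 and the first 1000 took 53.0% ± 0.26. Protein-coding genes took 99.05%. Ribosomal protein genes took 4.81% ± 0.069, with 82 of 86 present and 9 among the first 100. Of the genes present, 11124 were protein-coding and 266 were long non-coding RNAs. Xist, the long non-coding RNA of the inactive X chromosome, stood at 1261, 1219 and 1266 CPM, and the Y-linked genes Ddx3y, Kdm5d and Eif2s3y had 0 counts. Uty, also Y-linked, had 0, 0 and 2 counts, below the floor of 3, and the labels name female mice.

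Nearly all class II presentation genes were present, and each of those was highest in replicate 3. Of 14 such genes in the table, 13 were present, against 47.1% of all genes, and H2-Ea-ps, an alpha-chain pseudogene of this strain, had 0 counts. All 13 were highest in replicate 3, where 40.2% of present genes were highest. Of the 13, 10 were at least 1.25-fold above the mean of replicates 1 and 2, against 5.69% of present genes. The median log2 ratio of replicate 3 to that mean was 0.40 for the list and 0.00 for all present genes, whose 5th to 95th percentiles ran from -0.36 to 0.34. The order did not rest on replicate 3 alone, since 12 of the 13 were also higher in replicate 2 than in replicate 1, with a median log2 ratio of 0.19.

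The classical chains had the same order of libraries as Cd74. H2-Aa, the alpha chain of I-A, stood at 911, 1129.7 and 1499.6 CPM, and H2-Eb1, the beta chain of I-E, at 725, 927 and 1283 CPM. Together with H2-Ab1 and Cd74 they summed to 5675, 6938 and 9244 CPM, and each was lowest in replicate 1 and highest in replicate 3. The peptide-loading genes followed in the same order of libraries but over a narrower range. H2-DMa stood at 307, 340 and 419 CPM and H2-DMb1 at 146, 178 and 213 CPM; their products form the DM complex that exchanges the invariant-chain fragment for peptide. H2-Oa and H2-Ob, which encode the DO complex that restrains DM, stood at 12.9, 13.7 and 15.1 CPM and 9.51, 11.2 and 11.6 CPM.

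The regulator and the proteases of the pathway showed the same order of libraries. Ciita, the co-activator that class II transcription depends on, stood at 103, 117 and 154 CPM. Ctss, the cathepsin that trims the invariant chain, stood at 1085, 1215 and 1442 CPM, and Ifi30, a lysosomal thiol reductase, at 299.9, 330.3 and 408 CPM. All 3 had replicate 3 above both others.

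Start-site windows of class II genes are shown because these genes varied together across libraries. RefSeq windows of build GRCm38.p6, the same build as mm10, run from 250 bases before to 50 bases after each gene's start and are printed in the gene's direction. The letters GATTGG, the inverted CCAAT core of the Y box, and AACNGATG, the X box core, were searched on both strands and are set in capitals. Windows were given for 8 of the genes, as 9 windows.
H2-Aa, chr17:34287774-34288073, minus strand: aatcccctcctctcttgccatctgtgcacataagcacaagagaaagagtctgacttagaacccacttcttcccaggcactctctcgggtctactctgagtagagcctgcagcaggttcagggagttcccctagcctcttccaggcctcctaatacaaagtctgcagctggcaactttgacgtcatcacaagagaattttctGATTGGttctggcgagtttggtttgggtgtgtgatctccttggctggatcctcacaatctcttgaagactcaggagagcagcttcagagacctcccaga
H2-Eb1, chr17:34305617-34305916, plus strand: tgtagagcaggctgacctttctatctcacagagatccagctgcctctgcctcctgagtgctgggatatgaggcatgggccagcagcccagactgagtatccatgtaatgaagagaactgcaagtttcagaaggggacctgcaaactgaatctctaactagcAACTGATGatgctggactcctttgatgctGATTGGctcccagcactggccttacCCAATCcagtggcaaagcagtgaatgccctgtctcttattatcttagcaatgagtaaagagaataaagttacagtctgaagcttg
H2-DMb1, chr17:34152941-34153240, plus strand: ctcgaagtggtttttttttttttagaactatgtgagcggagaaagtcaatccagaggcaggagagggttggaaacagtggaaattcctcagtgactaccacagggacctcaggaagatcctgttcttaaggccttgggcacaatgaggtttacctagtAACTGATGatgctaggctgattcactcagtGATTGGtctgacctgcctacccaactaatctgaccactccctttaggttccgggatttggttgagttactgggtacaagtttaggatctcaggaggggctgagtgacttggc

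GATTGG lay in 8 of the 9 windows and in at least 1 window of each of the 8 genes, against 16.1% of 32851 RefSeq windows of this length. AACNGATG lay in 4 of the 9, against 2.32% of all windows. In H2-Aa the GATTGG began 49 bases upstream of the start, and in H2-Eb1 and H2-DMb1 it began 60 and 62 bases upstream. Where both were found, the X box core began 29 bases before the Y box core in H2-Eb1 and H2-Eb2, and 30 bases before it in H2-DMb1 and H2-DMb2. The H2-Eb1 window held a second copy on the other strand, printed as CCAATC. A match of letters is a description and shows no binding in these cells.

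Class I presentation genes were present and nearly even across libraries. Of 22 in the table, 19 were present. B2m, the light chain shared by class I molecules, stood at 1560.4, 1610.4 and 1497 CPM, and H2-K1, a classical heavy chain, at 1028, 1138 and 1063 CPM. The peptide transporter genes Tap1 and Tap2 stood at 129 ± 3.84 CPM and 166 ± 3.56 CPM, and Calr, a chaperone of the loading complex, at 1218 ± 46.2 CPM. Of the 19 genes, 1 was at least 1.25-fold higher in replicate 3, against 5.69% of present genes. It was Cd1d1, which presents lipids, at 38, 35.2 and 53.3 CPM. H2-Q6 and H2-Q7 were listed at 0 and H2-T22 had 1 count in 1 library; these genes have near-identical copies, so their reads may have been assigned elsewhere or dropped, and no absence is read from them.

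**Figure D2:**
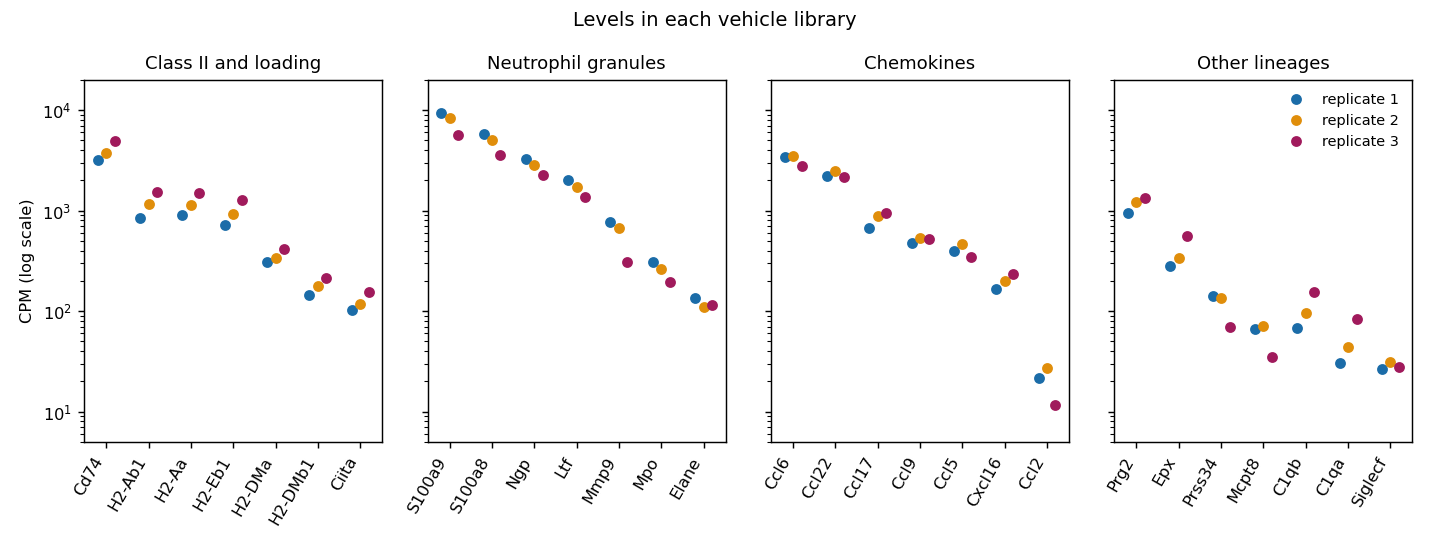
CPM (log scale) of selected genes in each vehicle library, 1 point per library, in 4 groups: class II and peptide loading, neutrophil granules, chemokines and other lineages. Replicate 3 is the highest point for each of the 7 class II genes and the lowest for 6 of the 7 neutrophil genes; Elane is lowest in replicate 2.

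Lysosomal genes, which serve the degradation of ingested protein, were present in full, 24 of 24. They summed to 19578, 20166 and 22736 CPM. In replicate 3, 20 of the 24 were highest, against 40.2% of present genes, with a median log2 ratio of 0.18 to the mean of the others. Ctsd, an aspartic protease, was even at 1986, 2066 and 1995 CPM. Ctsb and Ctsz, cysteine cathepsins, stood at 990.3 ± 75.5 CPM and 1153 ± 64.7 CPM, and Lamp1, a lysosomal membrane protein, at 1023 ± 30.6 CPM. Grn, progranulin, stood at 684, 666 and 832 CPM, highest in replicate 3.

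The GM-CSF receptor genes were among the abundant surface genes. Csf2rb, the shared beta chain, stood at 2679.7, 2816 and 2740.5 CPM, rank 17 of the table, and Csf2rb2, a closely related mouse gene whose reads could be confused with it, at 1024, 1086 and 1092 CPM. Csf2ra, the alpha chain that binds GM-CSF, stood at 533, 579 and 295 CPM, with replicate 3 far below the others (log2 ratio to their mean -0.92). Csf1r, the receptor for macrophage growth factor, stood at 1115, 982 and 1101 CPM, while Flt3, the receptor of steady-state dendritic cell progenitors, stood at 7.92, 8.49 and 8.13 CPM. Both of these were even across libraries. All 25 growth factor and cytokine receptor genes listed were present.

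Integrin, Fc receptor and lectin genes gave the rest of the abundant surface set. Itgam, the CD11b chain that pairs with CD18, stood at 2299, 2158 and 1725 CPM, lowest in replicate 3, and Itgb2, CD18 itself, at 1331, 1334 and 1281 CPM, even across libraries. Of the other partners of CD18, Itgax was highest in replicate 3 (values above), and Itgal, CD11a, stood at 322, 318 and 352 CPM. Of 21 integrin and adhesion genes, 20 were present, with Itgb8 between the limits. Lilrb4a, an inhibitory immunoglobulin-like receptor, stood at 1386 ± 76 CPM, Cd52, a small glycoprotein of leucocytes, at 681 ± 17.6 CPM, and Ptprc, the common leucocyte phosphatase CD45, at 646 ± 18 CPM.

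Fc receptor genes, which bind antibody-coated material, were present for 8 of 9. Fcgr3, an activating low-affinity receptor gene, stood at 516 ± 7.22 CPM, its signalling chain Fcer1g at 473 ± 6.91 CPM, the inhibitory receptor gene Fcgr2b at 401 ± 38.3 CPM, and the high-affinity receptor gene Fcgr1 at 96.3 ± 10.4 CPM. C-type lectin and uptake receptor genes were present for 24 of 25, and Cd207, the langerin gene of Langerhans cells, was near the floor with 1, 1 and 3 counts. Clec4n, dectin-2, stood at 1196, 1283 and 1452 CPM and Clec7a, dectin-1, at 281, 312 and 328 CPM; both recognise fungal walls. Mgl2, a galactose-binding lectin of type 2 dendritic cells, stood at 1085, 1122 and 1279 CPM.

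Many uptake genes were higher in replicate 3. In that library 20 of the 24 were highest, against 40.2% of present genes, and 11 were at least 1.25-fold above the mean of the others, against 5.69%, with a list median log2 ratio of 0.26. Mrc1, the mannose receptor, stood at 142, 152 and 263 CPM, Clec10a, another galactose lectin, at 70.9, 74.9 and 109 CPM, and Cd209a, a DC-SIGN homologue, at 3, 3.28 and 13.5 CPM. For these genes replicates 1 and 2 lay close together and replicate 3 lay apart. Clec5a, a lectin of neutrophils and monocytes, went the other way at 287, 273 and 192 CPM.

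Sensors of microbial products were present in full, 18 of 18 Toll-like receptor and adaptor genes. Tlr2, which senses bacterial lipoproteins, stood at 357 ± 11.8 CPM, Tlr4, the lipopolysaccharide receptor, at 117 ± 3.65 CPM, and the adaptor Myd88 at 181 ± 1.39 CPM. The list summed to 1511, 1496 and 1562 CPM, an even level across libraries.

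Chemokine output was concentrated in a few genes. Of 36 chemokine ligand genes in the table, 16 were present, a share of 44.4% against 47.1% of all genes, and 8 had 0 counts in the 3 libraries. Ccl6 stood at 3415, 3519.6 and 2791 CPM and Ccl9 at 479, 529.6 and 526 CPM, CC chemokines that mouse myeloid cells make in culture. Ccl17, which like Ccl22 binds CCR4, stood at 664, 880.3 and 947 CPM, lowest in replicate 1, and Ccl5, an attractant of T cells and monocytes, at 397, 463 and 347 CPM. Ccl6, Ccl22, Ccl17, Ccl9 and Ccl5 held most of the list's sum, which was 7633, 8384 and 7243 CPM.

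Several inflammatory chemokines, picked out of the list after their values were seen, were present at low shares. Ccl3, a macrophage inflammatory protein, stood at 54.4, 55.9 and 40.5 CPM, and the neutrophil attractants Cxcl2 and Cxcl3 at 32.5, 37.4 and 24.2 CPM and 41.2, 59 and 32.5 CPM. Ccl2, which attracts monocytes, stood at 21.5, 27.2 and 11.7 CPM. These 4 were lowest in replicate 3, with Ccl2 spread 2.32-fold, whereas Ccl4, another macrophage inflammatory protein, was even at 10.6, 10.1 and 11 CPM. Cxcl10, an interferon-induced chemokine, stood at 2.83 ± 0.247 CPM, Cxcl9 at 0.126 ± 0.0739 CPM, and Ccl8, Ccl11, Ccl20, Cxcl11 and Cxcl13 had 0 counts. Cx3cl1, the membrane-bound fractalkine, was present at 56.6 ± 5.77 CPM.

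Chemokine receptor genes were led by Ccr2 and Ccr7. Ccr2, the receptor that carries monocytes out of bone marrow, stood at 608, 576 and 734 CPM, and Ccr7, which guides mature dendritic cells to lymph nodes, at 590.3, 676 and 617 CPM. Of 20 such genes, 11 were present, a share of 55% that is near the 47.1% of all genes. Ccr1, a receptor of inflammatory CC chemokines, stood at 302 ± 31 CPM, and Ccr8 had 1 count in all.

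Genes of dendritic cell maturation were all present in these vehicle-treated cells, 20 of 20, against 47.1% of all genes. Fscn1, the actin bundler of dendrites, stood at 493, 546 and 535 CPM, and Cacnb3, a calcium channel subunit, at 611, 742 and 586 CPM. Among co-stimulatory genes, Cd86 stood at 107 ± 7.49 CPM, Cd80 at 64.5 ± 3.31 CPM and Cd40, the receptor for T cell help, at 17.7 ± 1.72 CPM. Cd83, a maturation marker, stood at 214 ± 21.2 CPM, and the inhibitory ligand genes Cd274 and Pdcd1lg2, which bind PD-1, at 323 ± 17.2 CPM and 96.2 ± 14.2 CPM. In this list replicate 2 was highest for 11 of 20 genes, against 26.2% of present genes, and replicate 3 for 9, near the 40.2% of present genes, and the median log2 ratio of replicate 3 to the others was 0.02.

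Cytokine genes showed a narrower set. Of 25, 15 were present, a share of 60% against 47.1% of all genes. Tgfb1, a suppressive growth factor, stood at 359 ± 8.21 CPM, Il1rn, the antagonist of interleukin-1, at 289 ± 46.5 CPM, Il1b, its inflammatory agonist, at 104 ± 8.07 CPM, and Tnf at 82.6 ± 9.43 CPM. Il12b, the p40 chain of interleukin-12, stood at 12.4 ± 2.01 CPM and Il6 at 4.83 ± 0.673 CPM. Il10 had 0, 2 and 2 counts, Ifng had 1 count in all and Ifnb1 had 0. Csf2, the gene of GM-CSF itself, had 1, 2 and 0 counts, near the floor.

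Dendritic cell subset genes covered a wide range of levels. Of 11 general dendritic cell genes, 10 were present. Zbtb46, the transcription factor that marks the conventional lineage, stood at 22.4, 25.5 and 26.7 CPM. Sirpa, a receptor of type 2 dendritic cells and macrophages, stood at 827, 798 and 832 CPM, and Irf4, a regulator of type 2 and monocyte-derived dendritic cells, at 224, 245 and 274 CPM. Of 10 type 1 genes, 7 were present, a share of 70% against 47.1% of all genes. Irf8, a regulator of this subset, stood at 203, 219 and 235 CPM, and Naaa and Wdfy4, an amidase and a factor needed for cross-presentation, at 598 ± 105 CPM and 368 ± 11.3 CPM. Xcr1, the chemokine receptor that defines the type 1 subset, stood at 0.319, 0.493 and 0.588 CPM, Clec9a, its receptor for dead cells, was just above the limit of presence at 1.02, 1.09 and 1.38 CPM, and Cadm1 had 0, 2 and 0 counts.

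Of 10 plasmacytoid dendritic cell genes 5 were present, a share near the 47.1% of all genes. Bst2, an interferon-induced surface protein found on many cells, stood at 76.7 ± 2.23 CPM, and the transcription factor genes Runx2, Spib and Tcf4 were present. Siglech, the surface lectin that defines this cell, stood at 0.287, 0.423 and 0.588 CPM, Ccr9 at 0.734, 1.48 and 0.726 CPM, and Klk1 had 1, 0 and 4 counts.

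**Figure D3:**
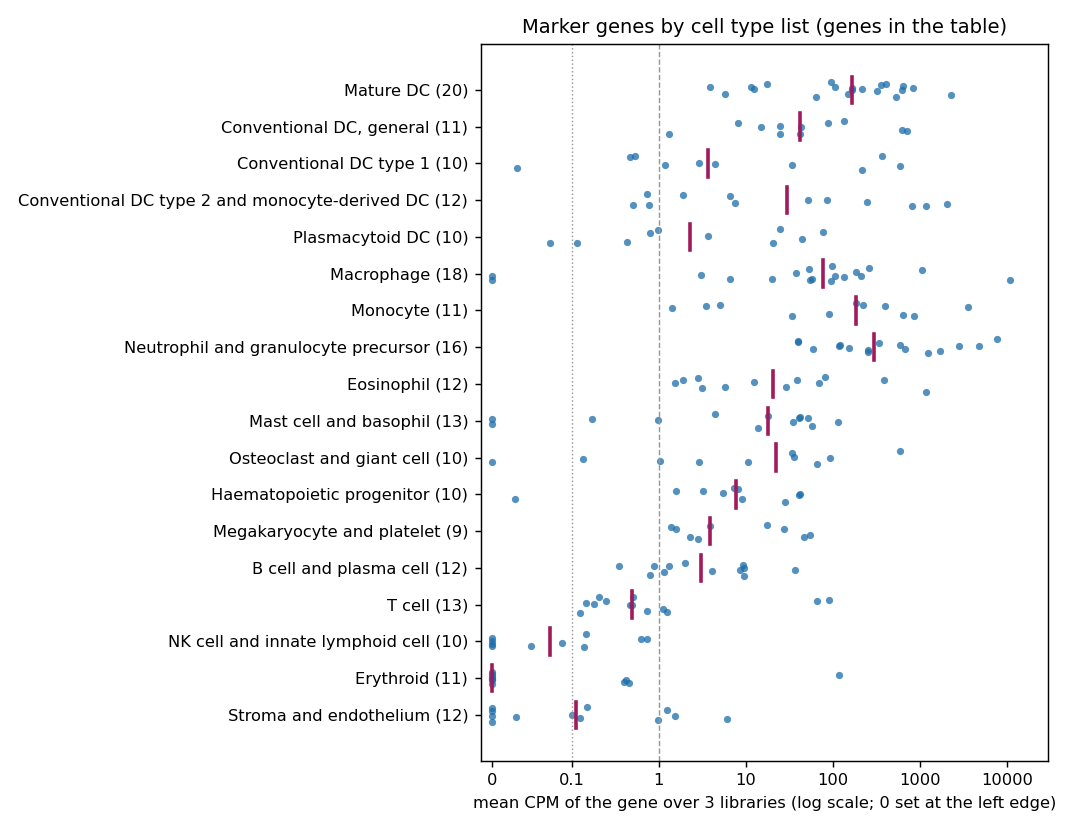
Mean CPM over the 3 vehicle libraries (log scale, 0 placed at the left edge) of each marker gene, 1 point per gene, by cell type list, with the number of genes in the table in brackets and the list median as a vertical bar. Dashed and dotted lines mark 1 and 0.1 CPM; neutrophil, eosinophil, monocyte and mature dendritic cell genes all lie above 1 CPM, and most T cell, NK and erythroid genes lie below it.

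Myeloid regulators were present in full, 32 of 32, with a larger share at least 1.25-fold lower in replicate 3 than among all present genes. Spi1, which encodes PU.1, the regulator of the whole myeloid lineage, stood at 439.5, 450.1 and 439 CPM, and Irf5, a regulator of inflammatory genes, at 489, 531 and 526 CPM. Cebpa, Cebpb and Cebpe, factors of granulocyte and monocyte genes, stood at 77 ± 3.52 CPM, 148 ± 8.7 CPM and 58.7 ± 4.02 CPM. Klf4, a monocyte factor, stood at 46.7, 44.4 and 64 CPM, highest in replicate 3, and Gata2, a factor of progenitors, mast cells and basophils, at 43.7, 50 and 27.2 CPM, lowest in replicate 3. The list, at a median level of 55.2 CPM, had a median CV of 5.97%. All present genes had 5.48% and genes at 10 to 100 CPM had 4.91%. In replicate 3, 16 of the 32 were lowest, against 38.3% of present genes. At least 1.25-fold lower there were 5 of the 32, against 5.95% of present genes, and 1 was that much higher, against 5.69%.

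Macrophage genes were present for 16 of 18. Cd68, an endosomal glycoprotein, stood at 259 ± 11 CPM, Adgre1, which encodes F4/80, at 132, 141 and 131 CPM, and Msr1, a scavenger receptor, at 210.2 ± 8.97 CPM. These were even across libraries. The subunits of the complement component C1q were not: C1qa stood at 30.5, 43.7 and 84.2 CPM, C1qb at 67.5, 95.5 and 155 CPM and C1qc at 36.8, 53.7 and 81.9 CPM. They differed 2.77-fold, 2.3-fold and 2.23-fold between replicate 1, the lowest, and replicate 3, the highest. Without replicate 3 the 3 subunits were still 1.44-fold, 1.42-fold and 1.46-fold higher in replicate 2 than in replicate 1.

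Of the 16 macrophage genes present, 13 were highest in replicate 3 and 2 were lowest there, against 40.2% and 38.3% of present genes. Marco, a scavenger receptor, stood at 4.76, 3.52 and 11.7 CPM, and Cd163, the haemoglobin receptor, at 2.11, 2.5 and 4.63 CPM, both highest in replicate 3. Apoe, a lipid carrier, was lowest in replicate 3 at 49.7, 81.1 and 32.3 CPM. Timd4, a receptor of tissue-resident macrophages, had 0 counts, and Vsig4, a complement receptor of such cells, had 1 count in all. Monocyte genes were present for 11 of 11. Ly6c2, an inflammatory monocyte marker, stood at 433, 378 and 391 CPM, Fn1, fibronectin, at 865 ± 81.7 CPM, and Cx3cr1, a receptor of patrolling monocytes, at 2.68, 2.68 and 5.22 CPM.

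The granulocyte genes that could be assessed were all present and were lower in replicate 3. Of 17 neutrophil and granulocyte precursor genes listed, 16 were in the table, and all 16 were present. Ly6g, a surface marker of mouse neutrophils, was not in the table, so its level is not known. They summed to 25144, 21959 and 15671 CPM. In replicate 3, 15 of the 16 were lowest, where 38.3% of present genes were lowest, and 13 were at least 1.25-fold below the mean of the others, against 5.95% of present genes. The list median log2 ratio was -0.50. Replicates 1 and 2 also differed in this list, with 15 of 16 lower in replicate 2 at a median log2 ratio of -0.20. S100a8 and S100a9 rank among the first 10 genes; monocytes also make both, so these 2 genes do not mark neutrophils alone.

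Granule proteins are laid down in order as neutrophils mature, and the genes of each stage were given separately after the values had been seen. The azurophil proteins belong to the earliest stage. Mpo, myeloperoxidase, stood at 309, 260.1 and 195 CPM, and the serine protease genes Elane, Prtn3 and Ctsg at 136, 109 and 116 CPM, 179, 149 and 136 CPM and 49.1, 37.6 and 33.5 CPM. The median log2 ratio of replicate 3 to the others for these 4 was -0.32.

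The specific granule genes came next. Ngp, neutrophilic granule protein, stood at 3270.1, 2842 and 2240.5 CPM, Ltf, the iron-binding lactoferrin, at 1991, 1702 and 1360.4 CPM, and Lcn2, the siderophore-binding lipocalin, at 1475, 1312 and 917 CPM. Camp, the cathelicidin, stood at 297, 253 and 214 CPM. The median log2 ratio for these 4 was -0.44, and all 4 were lowest in replicate 3.

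The last group held genes of gelatinase granules and mature neutrophils, together with Mmp8, whose product belongs to specific granules. Mmp9, gelatinase B, stood at 778, 674 and 309 CPM, a 2.52-fold span. Mmp8, neutrophil collagenase, stood at 802, 669 and 563 CPM, and Csf3r, the receptor for G-CSF, at 406, 379.6 and 242 CPM. Cxcr2, the receptor that calls neutrophils to sites of inflammation, stood at 144, 130.2 and 79.4 CPM. With Retnlg, a resistin-like protein of neutrophils, at 46.7, 42.8 and 28.2 CPM, these 5 had a median log2 ratio of -0.70 and were all lowest in replicate 3. Mmp8 alone had a log2 ratio of -0.39. The order of the 3 groups depended on the libraries compared. From replicate 1 to replicate 2 the medians were -0.29 for azurophil genes, -0.21 for specific granule genes and -0.14 for the last group.

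Start-site windows of granulocyte genes are shown because most of these genes too varied together. Elane was an exception, lowest in replicate 2, with a log2 ratio of replicate 3 to the others of -0.08. Each window printed below holds a match, and windows without any match are not printed. The letters TTGCNNAA, a core bound by C/EBP factors, and GAGGAAGT, a core bound by PU.1, were searched on both strands in the RefSeq windows of 14 of the 16 genes and are set in capitals.
S100a9, chr3:90695672-90695971, minus strand: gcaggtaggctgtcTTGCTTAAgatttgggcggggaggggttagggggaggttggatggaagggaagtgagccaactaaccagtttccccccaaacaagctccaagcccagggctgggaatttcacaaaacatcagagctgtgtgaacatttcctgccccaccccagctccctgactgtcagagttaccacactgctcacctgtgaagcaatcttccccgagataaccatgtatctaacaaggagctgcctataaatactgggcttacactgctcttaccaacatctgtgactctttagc
S100a8, chr3:90668821-90669120, plus strand: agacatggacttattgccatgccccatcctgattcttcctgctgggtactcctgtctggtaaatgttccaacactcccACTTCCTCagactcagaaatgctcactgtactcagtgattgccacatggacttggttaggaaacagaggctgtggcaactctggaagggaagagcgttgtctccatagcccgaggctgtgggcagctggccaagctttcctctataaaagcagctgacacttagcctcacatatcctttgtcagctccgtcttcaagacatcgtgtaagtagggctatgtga
Ngp, chr9:110419558-110419857, plus strand: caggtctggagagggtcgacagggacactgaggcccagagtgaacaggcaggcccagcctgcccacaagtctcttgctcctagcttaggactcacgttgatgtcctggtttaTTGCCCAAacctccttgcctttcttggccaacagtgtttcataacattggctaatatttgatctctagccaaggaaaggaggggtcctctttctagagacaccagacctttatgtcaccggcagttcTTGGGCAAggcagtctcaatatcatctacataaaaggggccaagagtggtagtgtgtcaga
Elane, chr10:79886062-79886361, plus strand: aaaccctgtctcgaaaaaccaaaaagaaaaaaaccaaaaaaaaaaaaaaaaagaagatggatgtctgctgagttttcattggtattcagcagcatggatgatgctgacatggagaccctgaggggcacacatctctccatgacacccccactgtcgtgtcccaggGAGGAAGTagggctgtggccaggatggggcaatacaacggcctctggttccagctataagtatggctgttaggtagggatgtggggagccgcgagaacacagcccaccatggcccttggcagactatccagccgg

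TTGCNNAA lay in 6 of the 14 windows (Lcn2, Ltf, Mmp8, Ngp, Retnlg and S100a9), against 10.8% of all windows. GAGGAAGT lay in 5 of the 14 (Elane, Mmp8, Mpo, Prtn3 and S100a8), against 3.20% of all windows. The match began 85 bases upstream of the start in Elane and 95 bases upstream in Prtn3. In S100a8 it lay on the other strand, 172 bases upstream. Ngp held 2 copies of TTGCNNAA, the nearer of them 11 bases upstream, and S100a9 held 1, 236 bases upstream. As for the class II windows, these matches describe the sequence and no binding was measured here.

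Eosinophil genes were present in full, 12 of 12, and their granule genes had the opposite order of libraries from those of neutrophils. The list summed to 1433, 1822 and 2171 CPM. Epx, eosinophil peroxidase, stood at 279.8, 336 and 555 CPM, Prg3, a homologue of Prg2, at 29.9, 35.5 and 50.5 CPM, and Ear1, an eosinophil ribonuclease, at 60.4, 85.9 and 98.6 CPM. Each was lowest in replicate 1 and highest in replicate 3. The Ear genes are close copies of one another, so the split of reads among Ear1, Ear2 and Ear6 is uncertain.

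Most surface and regulatory genes of eosinophils were highest in replicate 2. Siglecf, the surface lectin of mouse eosinophils and some macrophages, stood at 26.4, 31.3 and 27.9 CPM, Ccr3, the eotaxin receptor, at 10.9, 15 and 11.2 CPM, and Gata1, a factor of eosinophils, mast cells and erythroid cells, at 5.87, 6.91 and 4.7 CPM. In each of these replicate 2 was highest, while Il5ra, the interleukin-5 receptor, stood at 2.04, 3.17 and 3.22 CPM, in the order of the granule genes. Grouped after the values had been seen, 6 granule genes had a median log2 ratio of replicate 3 to the others of 0.54, and 5 surface and regulatory genes, Alox15 among them, one of -0.14. Between replicates 1 and 2 both groups were mostly higher in replicate 2, 5 of 6 and 5 of 5 genes.

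Mast cell and basophil genes were present for 9 of 13, against 47.1% of all genes. All 9 were lowest in replicate 3, where 38.3% of present genes were lowest. Prss34, the basophil protease mMCP-11, stood at 142, 134 and 70.1 CPM, and Mcpt8, the basophil protease mMCP-8, at 66.8, 71.7 and 34.7 CPM. Fcer1a, the alpha chain of the IgE receptor, stood at 5.3, 5.11 and 2.7 CPM, and Hdc, the enzyme that makes histamine, at 52.4, 58.9 and 45.6 CPM. For Prss34, Mcpt8 and Fcer1a, replicates 1 and 2 lay close together and replicate 3 lay apart. Cpa3, a mast cell carboxypeptidase, was present at 33.8, 39.5 and 30.2 CPM. Ms4a2, the beta chain of the IgE receptor, stood at 20, 19.3 and 14.4 CPM, and Kit was also present. Of the connective tissue mast cell proteases, Mcpt4 had 0 counts and Cma1 stood at 0.16, 0.282 and 0.0692 CPM. Tpsab1, a mast cell tryptase, had 0 counts. The list median log2 ratio was -0.74.

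Megakaryocyte and B cell genes were present at low shares, and most were also lowest in replicate 3. Of 9 megakaryocyte and platelet genes, 8 were present, with Itga2b, the platelet integrin alpha chain, at 56.7, 64.4 and 41.3 CPM and Pf4, platelet factor 4, at 43.4, 60.3 and 37.6 CPM. In replicate 3, 7 of the 8 were lowest, against 38.3% of present genes. Of 12 B cell genes, 8 were present, a share of 66.7% against 47.1% of all genes. Cd79a and Cd79b, the signalling chains of the B cell receptor, stood at 10.8, 10.1 and 7.61 CPM and 10.6, 9.2 and 7.64 CPM. In replicate 3, 7 of these 8 were lowest as well, against the same 38.3%. Sdc1, a plasma cell marker that myeloid cells can also make, was the exception at 32, 41.8 and 36.1 CPM.

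Genes of T cells, NK cells, red cells and stroma were mostly below 1 CPM. Of the 13 T cell genes 0 were absent, and their median level was 0.488 CPM. The T cell receptor genes Cd3e, Cd3d and Cd3g were below 1 CPM in every library, at 0.16, 0.282 and 0 CPM for Cd3e and 0.415, 0.669 and 0.38 CPM for Cd3d. Of 13 T cell genes, 3 were present: Thy1, at 101, 88.6 and 78.5 CPM, Il7r, at 57.6, 71.3 and 70.1 CPM, both of which other cell types also make, and the kinase gene Lck, at 1.37, 1.37 and 1 CPM. None of 10 NK and innate lymphoid genes was present, a count of 0, and 5 were absent. Of 11 erythroid genes 1 was present, Tfrc, the transferrin receptor of all dividing cells, at 118 ± 12.4 CPM. The haemoglobin genes Hba-a1, Hba-a2, Hbb-bs and Hbb-bt were listed at 0; they come in near-identical pairs, so their reads may have been dropped by the counting. Slc4a1, the anion exchanger of red cell membranes, also had 0 counts. Of 12 stromal and endothelial genes, 3 were present, and Col3a1, a fibroblast collagen, had 0 counts.

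Progenitor genes were mostly present at low shares, and proliferation genes were present in full. Of 10 progenitor genes, 9 were present, with a median level of 7.77 CPM over the list, and Mecom had 1, 1 and 0 counts. In replicate 3, 7 of the 9 were lowest, against 38.3% of present genes. Above the median were Kit, the stem cell factor receptor, at 46.9, 44.4 and 35.4 CPM, and Myb, a factor of immature cells, at 28.5 ± 2.19 CPM. Kit is also in the mast cell list. All 24 cell cycle genes were present, with Mki67, the proliferation antigen Ki-67, at 559, 496 and 557 CPM and Top2a, a topoisomerase of dividing cells, at 376, 338 and 379 CPM. In replicate 2, 21 of the 24 were lowest, where 29.3% of present genes were lowest. In replicate 3, 20 of the 24 were highest, against 40.2% of present genes, with a median log2 ratio of 0.12 to the mean of the others. The range was narrow, with sums of 3598, 3391 and 3701 CPM.

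**Figure D4:**
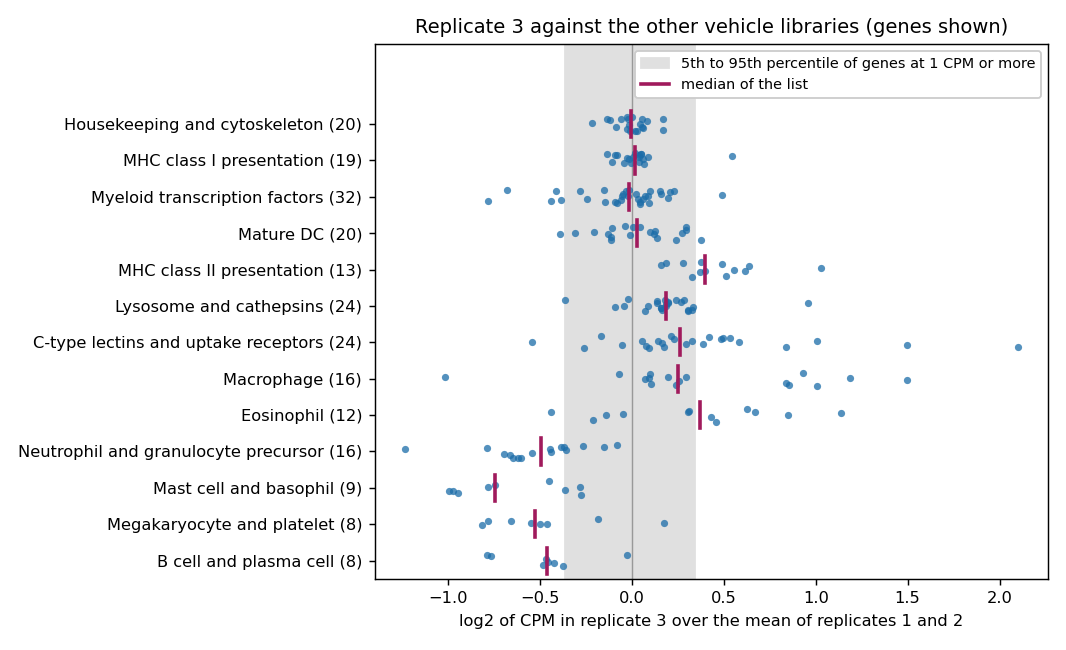
Log2 ratio of CPM in replicate 3 to the mean of replicates 1 and 2 for each gene at 1 CPM or more in all 3 libraries, 1 point per gene, by gene list, with the number of genes in brackets and the list median as a vertical bar. The grey band holds the 5th to 95th percentiles of all such genes; housekeeping, class I and transcription factor medians lie near 0, class II at 0.40 and neutrophil genes at -0.50.

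The spread of most genes over the libraries was small. The common biological coefficient of variation from edgeR, the part of the spread beyond counting error, was 7.75% over 12551 genes, and the quartiles of single genes were 5.89% and 10.6%. Without replicate 3 the common value was 4.00%. Genes at 1 to 10 CPM had a median CV of 12.2%, against 9.19% from counting alone. At 10 to 100 CPM the median was 4.91% against 3.07%, at 100 to 1000 CPM it was 3.72% against 1.42%, and for the 87 genes at 1000 CPM or more it was 4.77% against 0.49%. The most abundant genes therefore had a larger CV than the class below them, and counting error made up little of it.

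Of 8945 genes at a mean of 10 CPM or more, 931 had a highest library at least 1.25 times the lowest, 178 at least 1.5 times and 24 (0.268%) at least 2 times. Replicate 3 was the highest or lowest library for 79.0% of the 8945, for 177 of the 178 and for all 24. With 3 libraries, any single library is highest or lowest for most genes even when none stands apart, and the 79.0% is to be read beside that. Of the 24, 11 were highest and 13 lowest in replicate 3. Without replicate 3 none reached 2 times, a count of 0. Just inside the limit was Tln2, a talin, at 2.00, and just outside it Cd101, an immunoglobulin-family protein, at 2.00 when rounded.

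The genes with the widest span came from several groups. Gstt1, a glutathione transferase, had the widest at 3.42-fold and stood at 19.6, 17.5 and 5.74 CPM. Lama5, a laminin chain, stood at 38.3, 53.2 and 16.2 CPM, with replicate 2 highest. Cd209c, another DC-SIGN homologue, stood at 7.5, 7.19 and 20.6 CPM, and Fcrls, an Fc receptor-like gene of macrophages and microglia, at 22.1, 23.5 and 53.7 CPM. Both were highest in replicate 3, as were Klk1b11, a kallikrein with close copies, Klrb1b, a lectin-like receptor, Pdpn, podoplanin, and Asgr2, a chain of the asialoglycoprotein receptor. Asprv1, an aspartic protease, was lowest in replicate 3 at 74.1, 72 and 34.5 CPM, like Mmp9, Apoe and Ccl2.

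Without replicate 3 the widest ratios between the other libraries were smaller and fell on other genes as well as some of these. Erdr1 led at 1.87-fold, followed by Apoe at 1.63-fold, Ttll5, a tubulin-modifying enzyme, at 1.56-fold and Pdpn at 1.54-fold.

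The steadiest genes at a mean of 100 CPM or more served transport, splicing and other cell functions. Arhgdia, which holds small GTPases in the cytosol, stood at 925, 925 and 925 CPM, a CV of 0.022%. Ddx5, an RNA helicase, stood at 1052, 1055 and 1054 CPM, and Malat1, a nuclear long non-coding RNA, at 945, 947 and 944 CPM. Others among the steadiest were Rab8a, Atp5j, Eftud2, Skap2, Ubqln1 and Rnf115. With only 3 libraries, genes with so small a CV are those whose values happened to lie closest among many, since counting alone gave a median CV of 1.42% for genes at 100 to 1000 CPM.

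**Figure D5:**
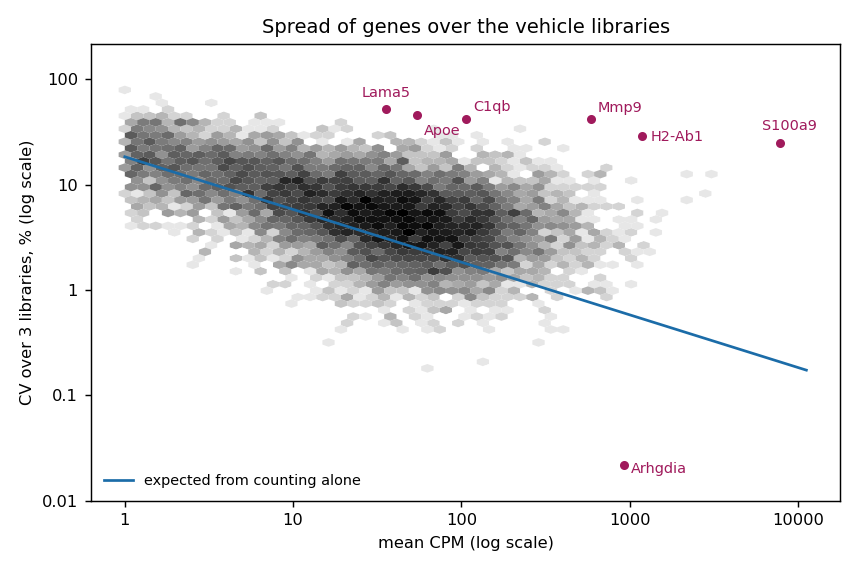
CV over the 3 vehicle libraries (percent, log scale) against mean CPM (log scale) for genes at a mean of 1 CPM or more; darker hexagons hold more genes, the line is the CV that counting alone gives, and named genes are marked. Most genes lie above the line at high CPM; Mmp9 and C1qb lie far above it and Arhgdia below it.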

How the data were processed

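RNA was sequenced from stranded poly(A) libraries per the labels' protocols. The authors deposited raw read counts per gene symbol, 1 column per library, and the 3 vehicle columns were used. Build mm10 and, among others, STAR 2.7.11b, SAMtools 1.7 and Trim Galore 0.6.7 are listed in the submitters' processing notes, without roles. How reads were counted, with which strand setting and annotation, is not given in the sources used here. Genes that overlap or have close copies may thus have lost or gained reads. Totals were 28457863 to 31413578 counts. Every column of the table was matched to a sample, and the open chromatin peak lists were not used here.

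CPM were computed on TMM effective totals over the 3 libraries (edgeR 4.0.16, R 4.3.3), with factors of 0.997 to 1.01. Means and SD are over 3 libraries; the coefficient of variation came from an edgeR dispersion fit with an intercept only, on genes passing its low-count filter (minimum count 10), and was tested on simulated data. With 1 group there was no test and no p-value. Positions came from RefSeq's GRCm38.p6 table, where 24265 symbols were found. Levels per transcript length had been planned, but transcript lengths were not used here.

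The 38 gene lists (553 genes, 545 in the table) and the genes described were chosen with earlier results of these data known. Named genes were the 6 defining genes, the 30 most abundant, the 3 most abundant of each list, absent defining markers, the 15 widest and 10 steadiest genes, and any member of the class II, chemokine, granule and transcription factor lists. Other members of the lists, and Tln2, Cd101, Erdr1 and Ttll5, were named after their values were seen. Alternatives were raw totals, TMM over 6 RNA libraries, DESeq2 1.42.0 size factors, other limits and leaving out each library. A few list members are not reported here.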

Additional observations from a re-analysis of the deposited data

How the results depend on the processing

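The number of genes with a highest library at least 2 times the lowest depended most on the settings. It was 24 at a mean of 10 CPM or more, 168 at a mean of 1 CPM or more, 12 at a mean of 50 CPM or more, and 178 with a ratio of 1.5. Leaving out 1 library gave 0 to 18, with 0 without replicate 3. The common coefficient of variation was 7.75% with all libraries and ranged from 4.00% without replicate 3 to 9.87% without replicate 2. The share of the first 100 genes was 20.1%, 19.8% without ribosomal protein genes, and 20.0% to 20.2% with 1 library left out.

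Genes present numbered 11488 under each of the 4 scalings, 12160 at 0.5 CPM and 10857 at 2 CPM, and marker genes present numbered 147 to 149 when 1 library was left out. Of 138 named genes, 9 differed by more than 1 SD from their reported level without replicate 3, 8 without replicate 1, 3 without replicate 2, 6 with TMM factors over 6 libraries, 2 with DESeq2 size factors and 1 with raw totals. None of the 38 list sums did, a count of 0. Leaving out 1 of 3 libraries cannot by itself move a mean by 1 SD. Apart from rescaling, the counts without a library therefore could not show dependence on that library. No independence from any library is read from them. As an alternative chosen after seeing the data, replicate 3 was set against replicate 1 and replicate 2 alone. Medians kept their direction at -0.61 and -0.38 for neutrophil, 0.55 and 0.30 for class II and 0.56 and 0.17 for eosinophil genes. Some other lists changed direction. Monocyte genes had -0.15 and 0.05, dendritic cell maturation genes 0.07 and -0.04, and surface and regulatory genes of eosinophils 0.08 and -0.38. No paired analysis was possible because only 1 group is described and no groups are compared. Ranks by CPM per kb were not run, for want of transcript lengths. At this depth a gene under 0.0339 CPM over the 3 libraries is below the floor of 3 counts, and only 3 libraries limit every SD.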

Other observations

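Iron and lipid handling genes were present for 15 of 16. Beside the ferritin chains, Lpl, lipoprotein lipase, stood at 1597 ± 85.4 CPM, Fabp5, a fatty acid carrier, at 533 ± 49.1 CPM and Hmox1, the haem-degrading oxygenase, at 88.9 ± 10.0 CPM. Pparg, a lipid-sensing nuclear receptor, was even across libraries at 22.9, 21.4 and 21.2 CPM. Slc40a1, the iron exporter ferroportin, was lowest in replicate 3 at 38.7, 32.9 and 26.6 CPM.

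Genes of osteoclasts and giant cells, which share a myeloid origin with these cells, were present for 7 of 10, against 47.1% of all genes. Dcstamp, a fusion protein of such cells, stood at 49.8, 66.8 and 82.0 CPM, and Acp5, tartrate-resistant acid phosphatase, at 8.49, 11.1 and 12.3 CPM, both highest in replicate 3. Mmp9, at 778, 674 and 309 CPM, and Itgb3, an integrin chain, at 43.4, 36.9 and 25.7 CPM, were lowest there. Of the 7 present genes, 4 were highest and 3 lowest in replicate 3, against 40.2% and 38.3% of present genes. Calcr, the calcitonin receptor of mature osteoclasts, had 0 counts.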
